A study of Mus musculus with 13 samples.

Results

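Hox cluster genes were followed in organoids grown from normal mouse mammary glands and from mammary tumors. They were taken as the non-control array probes whose gene name in the scanner files is Hox followed by a cluster letter (a, b, c or d) and a number. This gave 48 of 41174 probes and 37 genes, of which 10 were of the HoxA cluster, 10 of HoxB, 8 of HoxC and 9 of HoxD. One probe stood for 26 of the genes and 2 probes for 11. After a filter on dim probes, 17 of the 18274 genes tested were Hox cluster genes.

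Hox genes encode transcription factors that bind DNA through a homeodomain and give cells their position along the body axis. In mammals they lie in 4 clusters on different chromosomes, and genes with the same number in different clusters (paralogs) descend from 1 ancestral gene. Low numbers lie at the 3′ end of a cluster and act toward the head, and high numbers act toward the tail, in the order of their places in the cluster. In the mammary gland the paralogs numbered 9 are jointly needed for growth in pregnancy, and forced HOXB7 expression is known to change the behaviour of human breast epithelial cells.

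The study asked how the surrounding matrix and the malignant state change gene expression, and measured RNA on 1-colour Agilent arrays. Multicellular epithelial fragments were freed by mechanical and enzymatic digestion, with single cells spun away. Normal fragments came from glands of FVB mice labelled as wild type (WT). Tumor fragments came from the largest tumor of each MMTV-PyMT mouse at 12 to 16 weeks of age. MMTV-PyMT mice carry polyoma middle T antigen under a mammary tumor virus promoter, which is active mainly in mammary epithelium. All cultures received 2.5 nM of the growth factor FGF2 and were collected on day 4. Normal organoids were embedded in Matrigel, a basement membrane gel, from mice A, B and D, and in collagen I from rat tail (3 mg/ml) from mice A, B and C. Tumor organoids from mice A, B and C went into each of these gels. Normal A and B and all tumor letters therefore stand for 1 mouse sampled in both gels, while normal A is a different animal from tumor A. The sources used here do not state the age of the normal mice.

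All values are log2 processed signals relative to the 75th percentile of the array, so a value of 0 equals that percentile, and 1 unit is a 2-fold difference. Probes bind with different strength, so levels are compared between arrays and never between genes. A probe counted as detected where the scanner software flagged it as well above background. The 75th percentile of the signal lay between 671 and 1216 intensity units on the normal arrays, between 383 and 570 on the tumor Matrigel arrays and between 691 and 812 on the tumor collagen arrays. All 10 luminal epithelial markers were detected on every normal array, and the progesterone receptor gene Pgr was not detected on any tumor array. The samples are bulk RNA, in which fewer cells of a type and less RNA per cell cannot be told apart.

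The normal organoids expressed a wide set of Hox genes from the head to the middle of the clusters, and each tumor Matrigel array detected fewer. At least 1 normal array detected 24 of the genes, and at least 1 tumor array detected 22. Of the 37 genes, 7 were detected on all 12 arrays: Hoxa3, Hoxa7, Hoxb2, Hoxb4, Hoxb6, Hoxb7 and Hoxc4. The 9 genes detected on no array were Hoxa2, Hoxa11, Hoxb1, Hoxb8, Hoxc5, Hoxc12, Hoxc13, Hoxd1 and Hoxd11. On each normal array 16 to 22 Hox genes were detected. On the tumor Matrigel arrays the number was 8 to 11, and on the tumor collagen arrays 11 to 19. The normal and the tumor Matrigel arrays did not overlap in this number. The scanner software also flags signal significantly above background, and by that flag the numbers were higher. They were 30 to 31 in normal Matrigel, 27 to 30 in normal collagen I, 20 to 21 in tumor Matrigel and 23 to 30 in tumor collagen I. Over the same arrays, 62.8 to 71.0% of all non-control probes were detected on normal arrays, 56.1 to 58.1% in tumor Matrigel and 61.7 to 68.8% in tumor collagen I, so detection over all probes was also lowest in tumor Matrigel, whose arrays had the lowest 75th percentiles. The part of that brightness in the drop in Hox detection was not tested.

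**Figure D1:**
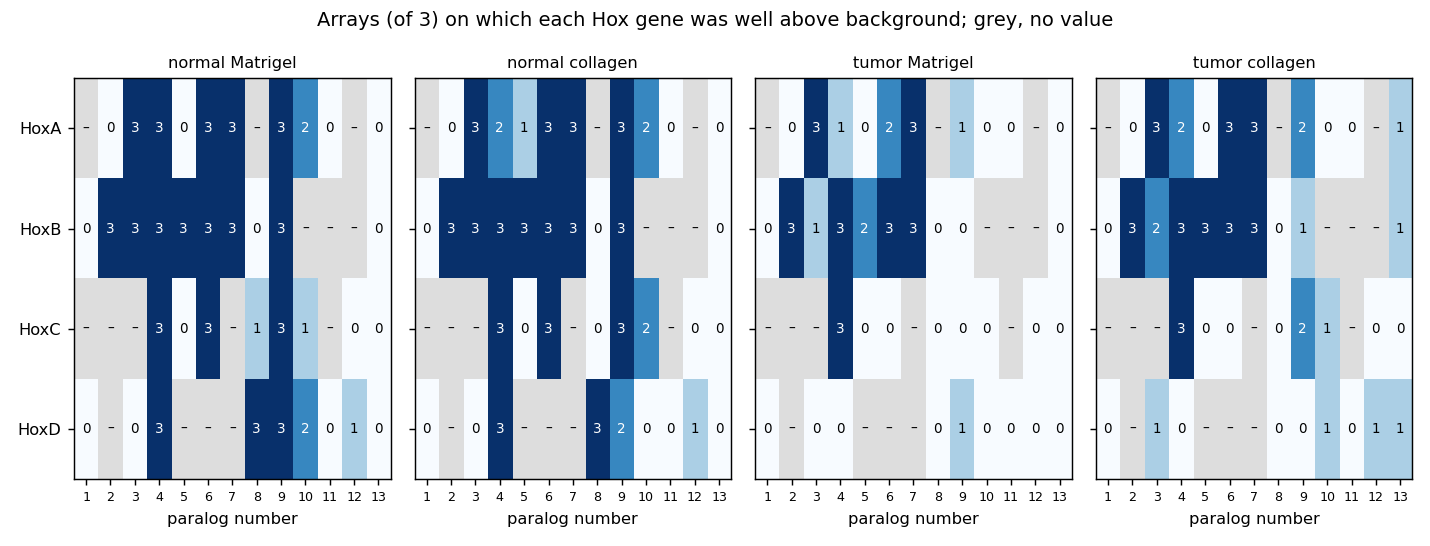
Number of arrays, of 3 in each group, on which a Hox gene was well above background, by cluster (rows) and paralog number (columns); grey cells hold no value. HoxB genes 2 to 7 and 9 were detected on all normal arrays, while Hoxc6, Hoxd4 and Hoxd8 were at 3 of 3 in both normal groups and at 0 of 3 in both tumor groups.

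The HoxB cluster was the most fully detected in normal organoids, with 7 of its 10 genes on all 6 normal arrays (Hoxb2 to Hoxb7 and Hoxb9). Of the 10 HoxA genes 4 were on all 6 normal arrays (Hoxa3, Hoxa6, Hoxa7 and Hoxa9), and so were 3 of the 8 HoxC genes (Hoxc4, Hoxc6 and Hoxc9) and 2 of the 9 HoxD genes (Hoxd4 and Hoxd8). No gene was detected on all 6 tumor arrays and on none of the normal ones. The tail end of the clusters was dim throughout. No gene with paralog number 10 to 13 was detected on all arrays of any group, and none of them was detected in tumor Matrigel. Hoxa10, Hoxc10, Hoxd10 and Hoxd12 reached detection on 3 to 4 of the 12 arrays, with signals of -6.04 to -5.15, close to the lowest detected signal of the arrays (-6.49 to -5.02). The tumor collagen A array stood apart, with 19 Hox genes detected. Its detected set included Hoxa13, Hoxb13, Hoxc10, Hoxd10 and Hoxd13 at -6.14 to -5.21, and Hoxd3 at -6.17. This array also had the lowest detection limit among the tumor arrays, -6.33 against -5.84 to -5.02.

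A probe had to be detected on all 3 arrays of at least 1 group to be tested, and genes short of that are described by detection alone. Hoxa4 was detected on 8 arrays through one or other of its 2 probes, Hoxa5 on 1 array (normal collagen C, -6.04) and Hoxc8 on 1 array (normal Matrigel D, -5.17). With the 9 undetected genes, Hoxd3 and the paralogs 10 to 13, they make up the 20 genes without a test. Of the 17 tested genes, 8 passed the filter through the normal groups only (Hoxa9, Hoxb3, Hoxb9, Hoxc6, Hoxc9, Hoxd4, Hoxd8 and Hoxd9), 9 through both tissues and 0 through the tumor groups only. The filter favours a difference in genes that pass only through the groups in which they are bright, though it does not force one. Counts and medians over the 17 genes carry that selection and support nothing by themselves. The differences and p-values of these 8 genes carry it too.

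**Figure D2:**
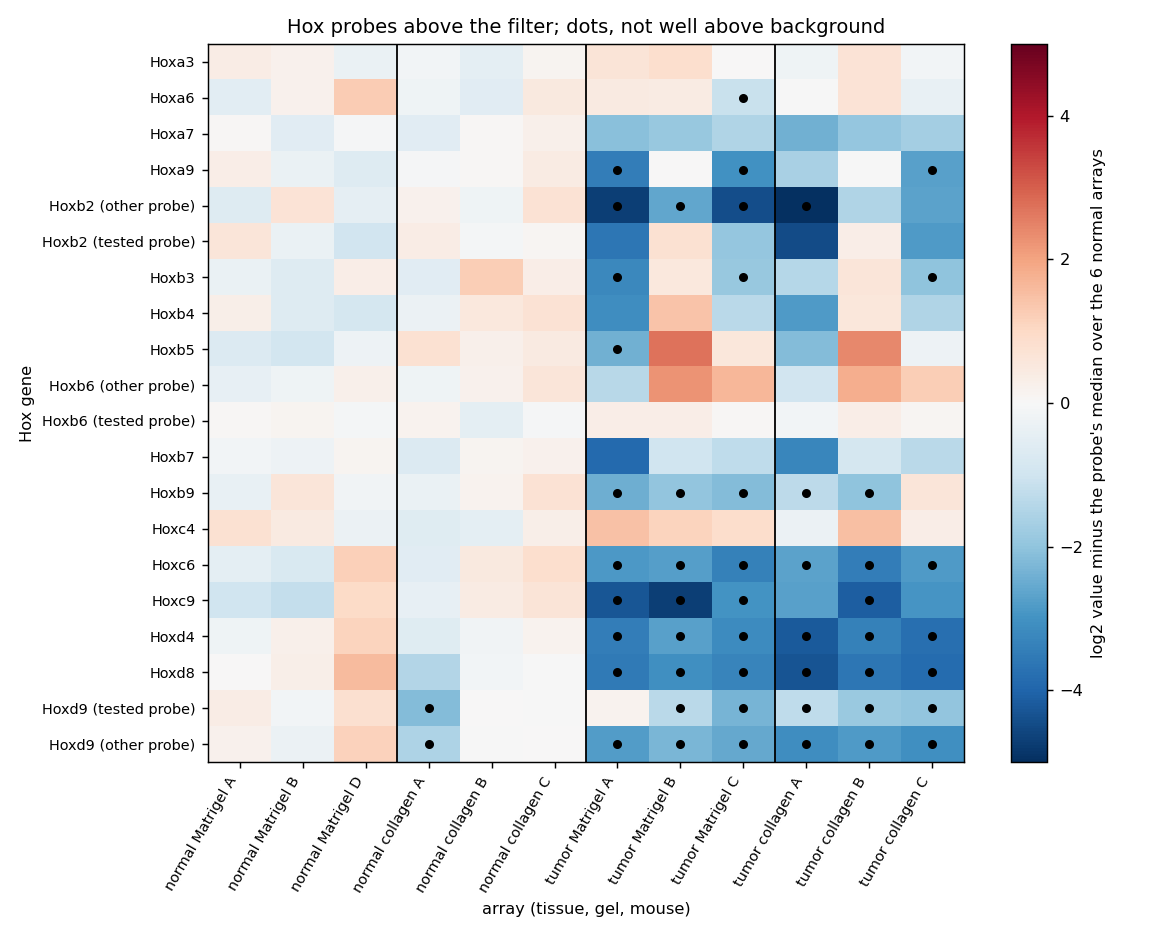
Log2 signal of the 20 Hox probes that passed the filter, each relative to its median over the 6 normal arrays (colour, blue lower and red higher), on the 12 arrays (columns); black dots mark values not well above background. The block from Hoxc6 to Hoxd8 is blue on every tumor array. The rows of Hoxb3, Hoxb4, Hoxb5, the tested Hoxb2 probe and the other Hoxb6 probe change colour between tumor mice A and B in both gels. Hoxb7 and the other Hoxb2 probe are blue on every tumor array.

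The first comparison asked whether tumor and normal organoids differ when both are in Matrigel. Of the 17 Hox genes, Hoxd8, Hoxd4, Hoxc9, Hoxc6, Hoxb9, Hoxb7 and Hoxa7 were called lower in the tumors (limma, Benjamini-Hochberg adjusted p under 0.05). That is 7 of 17 (41.2%), beside 51.6% of all 18274 genes, so the share called was no larger than the background. The share called lower was likewise 41.2%, beside 25.9% of all genes, the share called higher was 0% beside 25.7%, and the median difference was -1.52 for the Hox genes and 0.08 for all genes. In collagen I, 5 of 17 Hox genes were called, all lower (Hoxa7, Hoxc6, Hoxc9, Hoxd4 and Hoxd8), or 29.4% beside 8.64% of all genes in either direction, 5% lower and 3.64% higher. The median was -1.58, beside 0.05 for all genes. The groups of 3 arrays cannot give an exact permutation p below 0.1, so the tests rest on the spread that limma pools over genes.

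The HoxD genes Hoxd4 and Hoxd8, neighbours in their cluster, were detected on every normal array and on no tumor array. The signal of Hoxd4 was -4.57, -4.12 and -3.25 in normal Matrigel A, B and D and -4.99, -4.56 and -4.17 in normal collagen A, B and C. In tumor Matrigel A, B and C it was -7.81, -7.07 and -7.51, and in tumor collagen I -8.57, -7.76 and -8.12. Every tumor array lay below every normal array, and no tumor array was well above background. The processed intensity of the Hoxd4 probe was 28.3 to 115 units on the normal arrays and 2.1 to 3.3 on the tumor arrays, while the 153 negative-control spots had medians of 2.2 to 3.8 over the 12 arrays. In the tumors Hoxd4 was thus at the level of the negative controls. A bound on the fold sets the mean of the bright group against the lowest detected signal of each dim array. By that bound Hoxd4 was at least 2.45-fold lower in Matrigel and at least 2.49-fold lower in collagen I. The fitted log2 differences were -3.48 ± 0.36 (SE, limma adjusted p = 7.67e-05) and -3.58 ± 0.36 (adjusted p = 0.00014). The SEs and p-values of Hoxd4, and of other genes undetected in a tumor group, rest partly on values not well above background.

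Hoxd8 separated the tissues in the same way. Its signal was -3.98, -3.70 and -2.41 in normal Matrigel A, B and D and -5.45, -4.14 and -4.01 in normal collagen A, B and C. In the tumors it was -7.51, -7.04 and -7.30 in Matrigel and -8.32, -7.62 and -7.85 in collagen I, on no array well above background. The intensities of 23.9 to 207 on normal arrays and 2.5 to 3.6 on tumor arrays again put the tumors at the negative controls. The bounds were at least 3.75-fold lower in Matrigel (fitted -3.92 ± 0.45, adjusted p = 0.000137) and at least 2.57-fold lower in collagen I (-3.40 ± 0.45, adjusted p = 0.000914).

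The sequence just before the start of each of these 2 neighbours is shown because both were below detection in every tumor array; CG pairs, the sites of vertebrate DNA methylation, are in capitals. The 250 bases are from RefSeq, build GRCm38.p6, plus strand, chr2:74721728-74721977 for Hoxd4 and chr2:74704365-74704614 for Hoxd8.
Hoxd4: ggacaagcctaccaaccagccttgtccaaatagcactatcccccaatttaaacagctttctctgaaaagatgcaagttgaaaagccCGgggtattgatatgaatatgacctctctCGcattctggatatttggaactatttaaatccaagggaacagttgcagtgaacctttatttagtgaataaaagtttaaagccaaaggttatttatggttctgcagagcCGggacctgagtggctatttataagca
Hoxd8: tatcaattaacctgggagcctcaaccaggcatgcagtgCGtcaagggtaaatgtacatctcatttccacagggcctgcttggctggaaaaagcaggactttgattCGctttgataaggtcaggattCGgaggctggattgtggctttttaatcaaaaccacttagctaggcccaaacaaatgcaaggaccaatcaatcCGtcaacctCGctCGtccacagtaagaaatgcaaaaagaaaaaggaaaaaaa
Hoxd4 has 3 CG pairs in this window and Hoxd8 has 6, beside a median of 6 over 32841 promoters and of 12.5 over the 24 Hox promoters in the table, which range from 2 to 35. The methylation of these sites was not measured.

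The other HoxD genes were dimmer. Hoxd9, a paralog of the group needed by the mammary gland in pregnancy, had 2 probes that passed the filter and did not give the same call. The tested probe differed by -1.52 ± 0.67 in Matrigel (adjusted p = 0.0795) and -0.97 ± 0.67 in collagen I (adjusted p = 0.430). On tumor Matrigel A it was detected at -4.97, among the normal values of -7.30 to -4.34. Without that array it was called lower in Matrigel (-2.20 ± 0.63, adjusted p = 0.0175), as it was without normal collagen A (adjusted p = 0.0412). With the mean of its probes Hoxd9 was called lower in Matrigel (-2.22 ± 0.50, adjusted p = 0.00402). With normexp background correction it was called higher there (1.23 ± 0.38, adjusted p = 0.0205). The other Hoxd9 probe lay between -6.32 and -3.60 on normal arrays and between -7.88 and -7.07 on tumor arrays, where it was never detected. Tested by itself over all probes, it was at least 1.81-fold lower in Matrigel (-2.91 ± 0.44, adjusted p = 0.000504) and at least 1.52-fold lower in collagen I (-2.48 ± 0.44, adjusted p = 0.00574).

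In the HoxC cluster, Hoxc6 and Hoxc9 were lower in tumors in both gels, and Hoxc4 was not. Hoxc9 was measured at -3.57, -3.75 and -1.62 in normal Matrigel A, B and D, and at -2.98, -2.18 and -1.92 in normal collagen A, B and C. In the tumors it was -6.84, -7.27 and -5.57 in Matrigel, never detected, and -5.30, -6.70 and -5.54 in collagen I, detected in mice A and C. Tumor and normal arrays did not overlap. Hoxc9 was at least 4.90-fold lower in tumor Matrigel (-3.58 ± 0.63, adjusted p = 0.00116), and was called lower in collagen I (-3.49 ± 0.63, adjusted p = 0.00606), where 2 of the 3 tumor arrays measured it.

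Hoxc6 was measured at -4.37, -4.65 and -2.71 in normal Matrigel A, B and D and at -4.47, -3.41 and -3.06 in normal collagen A, B and C. In tumors it was between -7.37 and -6.56 and never detected. The bounds were at least 2.57-fold lower in Matrigel (-2.98 ± 0.51, adjusted p = 0.00098) and at least 4.74-fold lower in collagen I (-3.24 ± 0.51, adjusted p = 0.00246). Hoxc4, the 3′-most HoxC gene, was detected on all 12 arrays. In Matrigel it ranged from -3.02 to -1.97 on the normal and from -1.86 to -1.26 on the tumor arrays, without overlap, and in collagen I from -3.32 to -2.43 and from -3.02 to -1.22, with overlap. Its differences of 0.85 ± 0.44 and 0.79 ± 0.44 were not called (adjusted p = 0.133 and 0.323). In Matrigel it was called higher with the slide as a fixed block (1.52 ± 0.22, adjusted p = 0.0127) and with normexp background correction (1.07 ± 0.33, adjusted p = 0.0204, and 1.20 ± 0.40, adjusted p = 0.0395, without offset).

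Most fibroblast and endothelial markers were called lower in tumors, as were Hoxc6, Hoxc9, Hoxd4 and Hoxd8. Of 9 fibroblast markers 9 were called lower in tumor Matrigel and 7 in tumor collagen I, among them the collagen gene Col3a1 (-5.16 ± 0.72, adjusted p = 0.000379, and -4.14 ± 0.72, adjusted p = 0.00506). Their mean signal per array ran from -0.09 to 2.33 in normal Matrigel, 0.51 to 1.88 in normal collagen I, -2.34 to -1.98 in tumor Matrigel and -1.67 to -0.82 in tumor collagen I. Of these markers only Fap was undetected on all 3 arrays of a group, in tumor Matrigel. The 6 normal arrays, which come from 4 mice, stood in the same order for Hoxc9 and for the fibroblast mean, with Matrigel D highest (-1.62 and 2.33) and Matrigel B lowest (-3.75 and -0.09). Hoxc6, Hoxd4 and Hoxd8 were also highest in normal Matrigel D. The Hoxc6 order differed from the fibroblast order only in normal Matrigel A (-4.37) and collagen A (-4.47), which changed places. For Hoxd4 and Hoxd8 the other normal arrays did not keep the fibroblast order. Normal Matrigel B, lowest for the fibroblast mean, was lowest for Hoxc6 (-4.65) but second highest for Hoxd4 (-4.12) and Hoxd8 (-3.70). Among the tumor arrays the 2 on which Hoxc9 was detected, collagen A and C, had the highest fibroblast means, -0.91 and -0.82. Of 6 endothelial markers 5 were called lower in each gel. Of 8 basal (myoepithelial) markers 4 were called lower and 1 higher in each gel, and 2 of the 3 adipocyte markers tested were called lower in Matrigel and 1 in collagen I. Of 7 leukocyte markers 1 was called lower and 1 higher in Matrigel and 3 lower in collagen I, and of 10 luminal markers 3 were called lower in each gel and 3 higher in Matrigel. The part of these cell types in the Hox differences was not tested.

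In the HoxA cluster, Hoxa7 was lower in tumors. Hoxa7 was detected on every array. It lay at -1.45, -2.07 and -1.58 in normal Matrigel A, B and D and at -2.07, -1.46 and -1.28 in normal collagen A, B and C. The tumor values were -3.60, -3.42 and -3.02 in Matrigel and -3.91, -3.46 and -3.23 in collagen I. The tissues did not overlap and the spread within each group was small, with SDs of 0.29 to 0.42 (n = 3). Hoxa7 fell 3.14-fold in tumor Matrigel (-1.65 ± 0.28, adjusted p = 0.00092) and 3.81-fold in tumor collagen I (-1.93 ± 0.28, adjusted p = 0.0015). Neither call held with normexp background correction (-0.14, adjusted p = 0.763, and -0.95, adjusted p = 0.164) or with the slide as a fixed block (-1.35, adjusted p = 0.0734, and -2.04, adjusted p = 0.126).

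Hoxa3 and Hoxa6 were not called in either gel. Hoxa3 was detected on all arrays, between -2.75 and -1.93 on normal and between -2.50 and -1.44 on tumor arrays, with differences of 0.42 ± 0.31 and 0.26 ± 0.31 (adjusted p = 0.282 and 0.673). The 95% intervals were -0.27 to 1.11 and -0.43 to 0.95. Hoxa6 lay between -5.44 and -3.59 on normal arrays and between -5.97 and -4.20 on tumor arrays. Other settings called them higher in tumor Matrigel: Hoxa3 with the slide as a fixed block (0.99 ± 0.25, adjusted p = 0.0360) and with normexp (0.77 ± 0.27, adjusted p = 0.0338), and Hoxa6 with normexp (1.21 ± 0.36, adjusted p = 0.0180) and with the local background subtracted (0.47 ± 0.18, adjusted p = 0.0432).

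**Figure D3:**
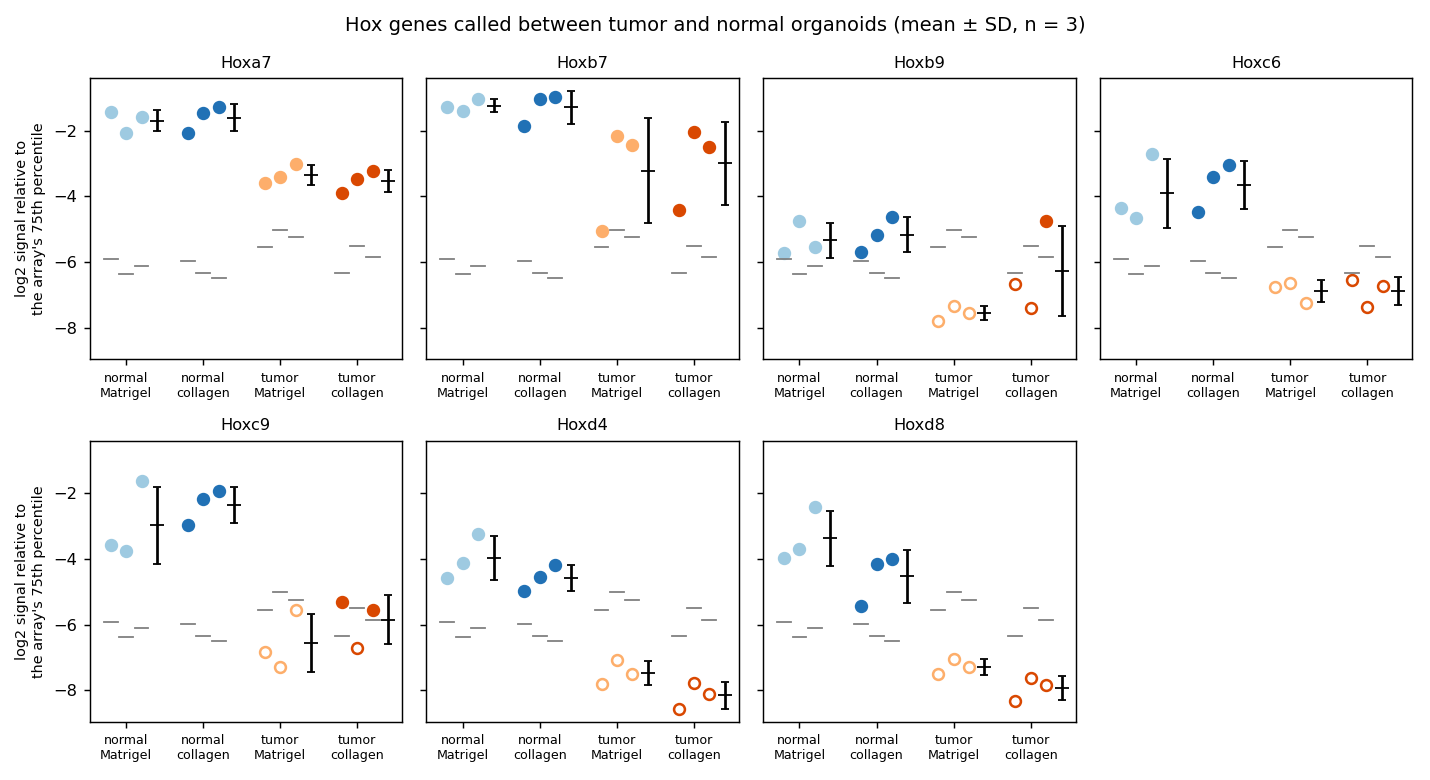
Log2 signal relative to the array's 75th percentile (y axis) of the 7 Hox genes called between tumor and normal organoids, 1 point per array with mean ± SD (n = 3) beside each group; open circles are not well above background, and grey bars mark the lowest detected signal on each array. Hoxa7 stays above the grey bars in every group, while Hoxd4 and Hoxd8 lie below them on all 6 tumor arrays.

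In the HoxB cluster, Hoxb9 and Hoxb7 were called lower in tumor Matrigel and no gene was called in collagen I. Hoxb9 was -5.73, -4.74 and -5.54 in normal Matrigel A, B and D and -5.70, -5.18 and -4.64 in normal collagen A, B and C. In tumor Matrigel it was -7.79, -7.33 and -7.54, never detected (-2.21 ± 0.57, adjusted p = 0.00814). The normal mean lay below the mean detection limit of the dimmer tumor Matrigel arrays, so no bound on the fold can be given. In tumor collagen I it was -6.67 and -7.39 in mice A and B and -4.75, detected, in mouse C, and the difference was not called (-1.09 ± 0.57, adjusted p = 0.280). Without the tumor collagen array of mouse C it was (-1.85 ± 0.38, adjusted p = 0.0192).

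Hoxb7 was between -1.86 and -0.97 on the normal arrays. In tumors it was -5.05, -2.15 and -2.45 in Matrigel and -4.42, -2.05 and -2.50 in collagen I, below every normal value. The mean difference in Matrigel was -1.97 ± 0.75 (adjusted p = 0.0472). Without the Matrigel array of mouse A it was -1.05 and was not called (adjusted p = 0.169). The call was borderline, since 8 of the 12 fits that left out an array gave no call. In collagen I the difference was -1.70 ± 0.75 (adjusted p = 0.204).

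Most tested HoxB genes lay far apart between the tumor mice, but Hoxb9 and the tested Hoxb6 probe did not (mouse means spread by 1.22 and 0.27). Hoxb7 also lay below every normal value in each tumor mouse. In Hoxb2, Hoxb3, Hoxb4, Hoxb5 and Hoxb7, and in Hoxa9, the means of the 3 tumor mice over both gels spread by more than 2 log2 units and by more than any difference between the gels within a mouse. That is 6 of 17 Hox genes, beside 1.68% of all 18249 genes with a value on every tumor array; the threshold of 2 was chosen after the values were seen. The median spread between mouse means was 1.26 for the Hox genes and 0.52 for all genes, and the median of the largest gel difference within a mouse was 0.85 and 0.95. Because the genes were picked by this spread, it is given as a description, with no test of the mice.

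Hoxb5 showed this pattern with mice on both sides of the normal range. In Matrigel and then collagen I, tumor mouse A had -6.23 (not well above background) and -6.03, mouse C -3.26 and -4.11, and mouse B -1.12 and -1.45. The normal arrays ran from -4.74 to -3.10, so mouse A lay below them and mouse B above them in both gels. Its difference between tissues in Matrigel was 0.91 with a 95% interval of -1.80 to 3.63. Hoxb2 was -3.04 and -3.90 in mouse A, -1.38 and -2.25 in mouse C and 1.34 and 0.91 in mouse B, beside -0.38 to 1.18 on the normal arrays. Mice A and C lay below the normal range in both gels, and mouse B within or above it. Hoxb4 was -5.25 and -5.0 in mouse A, -3.52 and -3.67 in mouse C and -0.73 and -1.58 in mouse B, beside -3.03 to -1.42 on the normal arrays.

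Hoxb3 and Hoxa9 were detected in mouse B in both gels, at -3.52 and -3.45 and at -3.57 and -3.61, within their normal ranges of -4.70 to -2.84 and -4.24 to -3.17. In mouse A they were undetected in Matrigel (-7.27 and -7.03) and detected in collagen I (-5.49 and -5.20), and in mouse C they were detected in neither gel (-6.61 to -5.95). For Hoxa9 the differences between tissues were -1.94 ± 0.85 in Matrigel (adjusted p = 0.0783) and -1.58 ± 0.85 in collagen I (adjusted p = 0.298). Without the Matrigel array of tumor mouse B, Hoxa9 was called lower (-3.02 ± 0.64, adjusted p = 0.0058), and so was Hoxb3 (-2.34 ± 0.78, adjusted p = 0.0385).

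Paralogs are most alike in the homeobox, and where each probe lies in its gene was not determined. The probes of Hoxa9 and Hoxb3, which followed tumor mouse B together, share a run of 22 bases, the longest among 1117 pairs of probes of different Hox genes, of which 4 pairs share 12 or more. The accessions listed for the Hoxb3 probe in the scanner files also name Hoxd3, so RNA of both could contribute to its signal.

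Probes of the same gene did not give the same pattern for Hoxb6 and Hoxb2. The Hoxb6 probe that was tested lay between -2.09 and -1.42 on normal and between -1.73 and -1.25 on tumor arrays, and its mouse means spread by 0.27. The other Hoxb6 probe, matched to a RefSeq transcript of Hoxb6, was -4.21 and -3.77 in tumor mouse A, -1.17 and -1.57 in mouse C and -0.58 and -1.0 in mouse B, beside -3.23 to -2.21 on the normal arrays. By that probe the order of the mice was that of Hoxb5, with mouse A below and mice B and C above the normal range. The other Hoxb2 probe, whose coordinates run on the opposite strand, was lower than on the normal arrays (-3.62 to -2.26) on all 6 tumor arrays (-8.43 to -4.47), where it was detected on 0 of 3 in Matrigel and 2 of 3 in collagen I. It was at least 4.46-fold lower in Matrigel (fitted -3.78 ± 0.88, adjusted p = 0.00478 over all probes) and was called lower in collagen I (-3.44 ± 0.88, adjusted p = 0.0377).

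**Figure D4:**
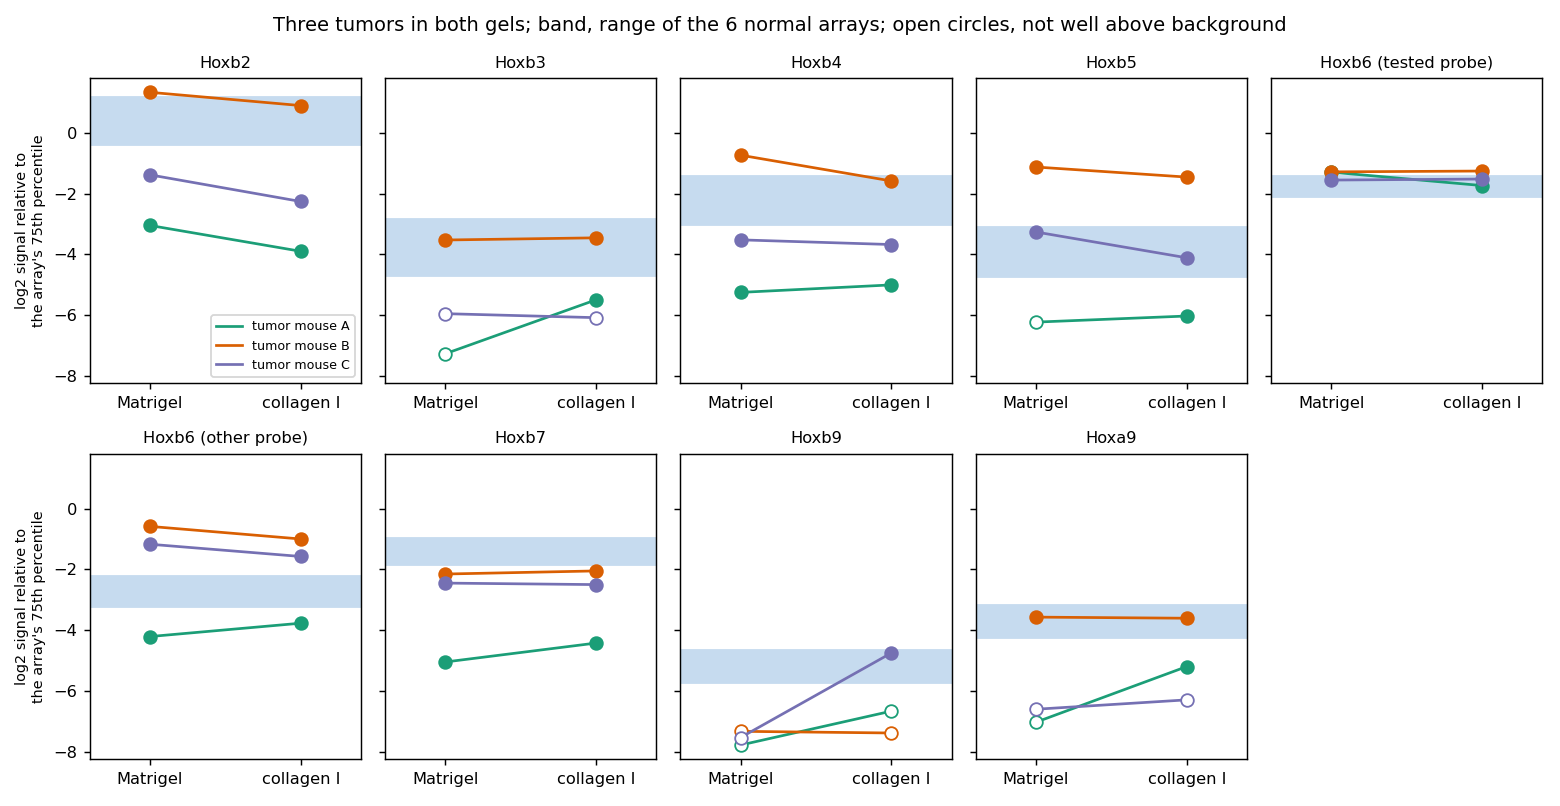
Log2 signal relative to the array's 75th percentile (y axis) of HoxB probes and of Hoxa9 in the 3 tumor mice, each mouse joined across Matrigel and collagen I; the band is the range of the 6 normal arrays, and open circles are not well above background. Mouse B is highest and mouse A lowest for Hoxb2, Hoxb4 and Hoxb5 in both gels, while the tested Hoxb6 probe is flat.

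Some properties of the arrays moved with the mice. The 75th percentile of the signal was 570, 383 and 435 in tumor Matrigel A, B and C and 812, 709 and 691 in tumor collagen I, so mouse A was brightest in both gels. The lowest detected signal was lowest in mouse A and highest in mouse B in both gels (-5.55 and -5.02 in Matrigel, -6.33 and -5.50 in collagen I). Of the 17 Hox genes 6 were lowest in mouse A and highest in mouse B in both gels, beside 2.82% of all genes. They included Hoxd4 and Hoxd8, which were at the negative controls and whose mouse means spread by 0.77 and 0.58, against 2.64 to 4.84 for the 6 genes with the mice apart. The fibroblast mean of tumor mice A, B and C was -1.98, -2.12 and -2.34 in Matrigel and -0.91, -1.67 and -0.82 in collagen I. The arrays of tumor collagen A and tumor Matrigel C shared a slide, but this pair differs in gel as well as in mouse. There the first minus the second was -2.77 for Hoxb5, -2.52 for Hoxb2, -1.98 for Hoxb7 and -1.48 for Hoxb4. It was 0.46 for Hoxb3 and 1.41 for Hoxa9, the other way. The part of brightness and of fibroblasts in the spread between mice was not tested.

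The gel itself left the Hox genes without a call. In normal organoids 0 of 17 Hox genes were called between collagen I and Matrigel (limma, 1 at an unadjusted p under 0.05), beside 0.0438% of all genes (0.0383% higher and 0.00547% lower). The gene with the unadjusted p under 0.05 was Hoxd8, lower in collagen I by -1.17 ± 0.45 (adjusted p = 0.466). In tumor organoids 0 of 17 were called (1 at an unadjusted p under 0.05), beside 27.8% of all genes (15.8% higher and 12.1% lower). The fitted Hox differences in tumors ran from -0.72 to 1.28 with a median of -0.19, beside -0.04 for all genes. For Hoxa7 the 95% interval was -0.80 to 0.42 and for the tested Hoxb6 probe -0.58 to 0.33, while for Hoxb5 it was -3.04 to 2.39 in this fit, which does not pair the mice. Within mice A, B and C the Hoxb5 differences were 0.20, -0.33 and -0.85, and with the mouse as a fixed block the estimate was -0.33 ± 0.25 (adjusted p = 0.361). The largest was Hoxb9 (1.28 ± 0.57, adjusted p = 0.115), which was not detected in tumor Matrigel and differed by 1.12, -0.06 and 2.79 within mice A, B and C. It was called higher in collagen I with quantile normalization (1.78 ± 0.55, adjusted p = 0.0411), in the authors' deposited values (1.75 ± 0.55, adjusted p = 0.0445) and without the tumor collagen array of mouse B (1.84 ± 0.53, adjusted p = 0.0295). With the mouse as a fixed block Hoxd4 was called (-0.68 ± 0.17, adjusted p = 0.0375), but it was not well above background in either tumor group and has no fold. No interaction between tissue and gel was called among the Hox genes (limma, 0 of 17, 0 at an unadjusted p under 0.05), beside 2.63% of all genes (1.34% higher and 1.29% lower).

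Hox proteins bind DNA together with partners of the TALE family (Pbx, Meis and Pknox). Of 7 such genes tested, 2 were called higher and 2 lower in tumor Matrigel and none in tumor collagen I (limma). Pbx3 fell by 1.02 ± 0.17 (adjusted p = 0.00092) and Meis1 by 1.29 ± 0.36 (adjusted p = 0.0118), while Pknox2 rose by 1.36 ± 0.32 (adjusted p = 0.00513) and Pbx2 by 0.57 ± 0.17 (adjusted p = 0.0165). In collagen I Pbx3 differed by -0.60 ± 0.17 (adjusted p = 0.0549) and Pknox1 by -0.31 ± 0.15 (adjusted p = 0.232). Of 23 Polycomb and Trithorax genes, which keep Hox clusters silent or active, 7 were higher and 7 lower in tumor Matrigel and 1 was higher in collagen I. Cbx2, a Polycomb subunit that binds methylated histone H3, rose in both (1.31 ± 0.20, adjusted p = 0.000587, and 0.78 ± 0.20, adjusted p = 0.036), and Phc2 (1.46 ± 0.19, adjusted p = 0.000285), Pcgf2 (1.29 ± 0.20, adjusted p = 0.000593) and the demethylase gene Kdm6b (1.16 ± 0.16, adjusted p = 0.000375) rose in Matrigel. These counts stand beside the 51.6% and 8.64% of all genes called.

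Retinoic acid induces 3′ Hox genes. Of 13 genes for its synthesis, breakdown and receptors and for the caudal factors, 4 were called higher and 4 lower in tumor Matrigel and 1 lower in collagen I. The receptor genes Rxrb (1.61 ± 0.22, adjusted p = 0.00037) and Rarg (1.00 ± 0.22, adjusted p = 0.00404) rose in Matrigel. The enzyme genes Aldh1a1 (-2.33 ± 0.41, adjusted p = 0.00124), which makes retinoic acid, and Cyp26a1 (-3.27 ± 0.72, adjusted p = 0.00381), which breaks it down, fell there, while Aldh1a2, another enzyme of retinoic acid synthesis, rose in Matrigel (1.00 ± 0.37, adjusted p = 0.0424) and fell in collagen I (-1.39 ± 0.37, adjusted p = 0.0421). Its gel effect differed between the tissues (interaction -2.39 ± 0.52, adjusted p = 0.0443), as did that of Rxrb (-1.48 ± 0.32, adjusted p = 0.0428). Of 10 genes that flank the Hox clusters, 2 were higher and 2 lower in tumor Matrigel and none was called in collagen I. Smug1, beside HoxC, differed by 0.43 ± 0.14 (adjusted p = 0.0244) and 0.48 ± 0.14 (adjusted p = 0.0601), and Lnpk, beside HoxD, by -0.94 ± 0.22 in Matrigel (adjusted p = 0.00537). Cbx5, beside HoxC, fell by 1.24 ± 0.21 (adjusted p = 0.00107) and Skap2, beside HoxA, rose by 0.55 ± 0.17 (adjusted p = 0.0182) in Matrigel. Between the gels in tumors, 2 Polycomb and Trithorax genes were called higher in collagen I and 4 lower, 3 genes of the retinoic acid and caudal list higher and 2 lower, and 1 flanking gene higher (Cbx5, 0.65 ± 0.21, adjusted p = 0.0449). In normal organoids none of these lists had a call between the gels (limma). The Hox-like gene Gsx1 was the 1 ParaHox gene tested and was not called in any comparison, and none of the 11 listed noncoding RNAs of the clusters had a probe under its symbol.

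The lower values in tumors depend on how signals are corrected for background. With normexp on the local background, 7 Hox genes were called in Matrigel, all higher, and 0 in collagen I. Of the genes called lower in Matrigel, Hoxb9, Hoxc6, Hoxc9, Hoxd4 and Hoxd8 turned positive there (0.14 to 1.24), and so did the uncalled Hoxd9 (1.23). On 3 tumor arrays (Matrigel B and C and collagen A) that correction gave the negative-control spots medians of 81.7 to 225 units, where their signal above local background was 2.5 to 7.2, and on the other 9 arrays it gave 9.3 to 13.5. Under normexp the median of all genes also shifted to 0.45 in Matrigel from 0.08, and 22.9% of the genes called there were lower, against 50.2% by the processed signal. For the genes called lower in both gels every tumor array lay below every normal array. Pairs of arrays on 1 slide therefore had to be negative, and they add no support. Tumor Matrigel B minus normal Matrigel D gave -1.85 for Hoxa7, -3.94 for Hoxc6, -5.66 for Hoxc9, -3.82 for Hoxd4 and -4.63 for Hoxd8. Normal Matrigel D was the highest normal array for Hoxc6, Hoxc9, Hoxd4 and Hoxd8. Tumor collagen C minus normal collagen B gave -3.70 to -1.77. With the slide as a fixed block, which leaves few arrays to compare, 8 Hox genes were called in Matrigel (Hoxa3, Hoxb4, Hoxb5 and Hoxc4 higher, and Hoxb9, Hoxc9, Hoxd4 and Hoxd8 lower) and 0 in collagen I, where Hoxd4 stayed at -3.56 (adjusted p = 0.0710).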

How the data were processed

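RNA of 13 samples was hybridised to 14 1-colour arrays. Spot intensity values were read with Agilent Feature Extraction, version 9.5 per the file headers and 9.1 per the submitters' processing notes; the processed signal is background-subtracted intensity as deposited. The authors' deposited log2 values correlated with the scanner values at r of at least 0.994, with column medians of 5.91 to 5.98; the sources used here do not state their scaling.

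Here log2 of the processed signal minus each array's 75th percentile was taken (outlier spots left out), probes well above background on all 3 arrays of at least 1 group were kept (26606), and the probe with the highest mean stood for its gene. RefSeq named 22951 probes (55.7%); the rest kept the file's name. The 12 arrays of the batch that was scanned later were fitted with limma 3.58.1 in R 4.3.3 (8 residual and 2.75 prior degrees of freedom). The fit used a contrast of the 4 group means and Benjamini-Hochberg adjustment over 18274 genes. Some genes, 1 of them a Hox cluster gene, are not reported here and are left out of counts over members and lists. The fit was tested on simulated data. The number of arrays limits the precision. Members, lists and tests were chosen with earlier results of these data known. Per-array values are given for Hox genes called in a comparison or dim in 1 group and detected in another, and up to 4 called genes are named from each other list. By the labels a letter marks the same mouse in both gels: deviations of paired arrays correlated at 0.24 and -0.24 in normal mice A and B and at -0.06, 0.32 and 0.42 in tumor mice A, B and C. Alternatives covered scaling, background correction, filter, probe choice, blocks, the deposited values and each array left out.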

Additional observations from a re-analysis of the deposited data

How the results depend on the processing

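Without a single array at a time, Hox calls numbered 6 to 9 for tumor against normal in Matrigel, 5 to 6 in collagen I, 0 to 1 between gels in tumors (Hoxb9, without tumor collagen B), 0 in normal organoids and 0 to 1 for the interaction. Hoxb7 in Matrigel lost its call in 17 of 28. The other 11 calls lost significance in up to 4 alternatives each, none of them by leaving out an array, and 6 of them reversed as given here. With normexp, Matrigel differences reversed for Hoxb9 (1.24), Hoxc6 (0.71), Hoxc9 (0.14), Hoxd4 (0.63) and Hoxd8 (0.51), and Hoxd8 in collagen I (0.029); collagen I then had 0 calls and 1 gene had tumor mice apart. Alternatives chosen after seeing the data were normexp without offset and the local background subtracted. Without offset, Hoxb9 (1.38), Hoxc6 (0.56), Hoxd4 (0.23) and Hoxd8 (0.22) reversed in Matrigel, with 1 call there, 0 in collagen I and 4 genes with mice apart. Subtraction reversed Hoxb9 (0.42) and gave 3 calls in Matrigel, 2 in collagen I, 2 between gels in tumors and 3 genes with mice apart. All-gene medians under normexp moved to 0.16 in collagen I, -0.32 between gels in tumors and -0.29 for the interaction; of the calls, 43.5, 60.8 and 90% were lower, against 57.8, 43.3 and 49.1%. Tested only where detected on all 12 arrays, 7 Hox genes were left, with 2 calls in Matrigel, 1 in collagen I and 3 with mice apart. Between gels in tumors, quantile normalization and the authors' deposited values gave 1 call each (Hoxb9). Slide as a fixed block gave 3 calls between gels in tumors (Hoxb2, Hoxb5 and Hoxc4), 2 for the interaction and 0 in collagen I. The mouse as a fixed replicate block gave 1 call between gels in tumors (Hoxd4) and changed no other gel count; as a random block it left 7 and 5 tissue calls. Except for the background corrections and the signal filter named here, the cause of these shifts was not tested. Low signal over background limits Hoxb9, Hoxc6, Hoxc9, Hoxd4 and Hoxd8 in tumors to bounds or to no fold.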

Other observations

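Normal Matrigel mice A and B also had arrays in a batch that was scanned earlier, and these arrays entered no comparison. They detected 15 and 14 Hox genes, against 18 and 21 on the later arrays of the same mice. Hoxa7 (-1.47 and -1.57), Hoxc6 (-4.00 and -4.42), Hoxc9 (-2.84 and -3.41), Hoxd4 (-3.20 and -3.38) and Hoxd8 (-3.56 and -4.04) lay above every tumor array of the later batch.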
